A study of Mus musculus with 13 samples.

Results

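Constitutive sites are the places in the genome where STAG2, STAG1 and CTCF were each called bound in both states of NU1 cells and in both replicates. NU1 is a spontaneously immortalized line of normal mouse urothelium with a WT genotype. Chromatin immunoprecipitation with sequencing (ChIP-seq) was run with antibodies against STAG2, STAG1 and CTCF. The 6 groups were quiescent STAG2, quiescent STAG1 and quiescent CTCF, and proliferating STAG2, proliferating STAG1 and proliferating CTCF, with 2 biological replicates each. Quiescent cells had reached confluence and were then kept in medium with 1 uM rosiglitazone and 0.5 uM erlotinib. Proliferating cells were in complete medium, so confluence and the agents cannot be told apart in the comparison of states. Peaks of chromosomes 1 to 19 from the 12 libraries were merged into sites wherever they shared at least 1 bp, and a site was kept where each of the 12 libraries had a peak. This left 18042 of 112325 sites. The sites were thus chosen by the peak calls themselves, so the numbers, folds, ranks and widths of these sites are a description.

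Cohesin is a ring of SMC1A, SMC3 and RAD21 to which either STAG2 or STAG1 is bound. It extrudes chromatin loops and is known to pause at CTCF, a zinc finger protein that reads a motif with a direction. In mammalian cells cohesin gathers on the side of the motif faced by the N terminus of CTCF, which is the 3′ side of the motif as written here. Inactivating mutations of STAG2 are frequent in human bladder cancer, and STAG1 can take its place in the ring.

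The promoters of the constitutive sites with the highest ranks and a match to the CTCF motif are shown because their letters give the direction in which the summits of the 3 proteins were compared. Each run comes from the RefSeq promoters of GRCm38.p6, the assembly of mm10, and is printed 5′ to 3′ on the strand on which the motif reads CC to GGC. Capitals mark the 12 matched bases. The strand given below is that of the printed run. As genes, Hoxd3os1 and Mterf1a lie on the minus strand and Gm46521 on the plus strand. The genes are Hoxd3os1 (chr2:74716168-74716227, plus strand), Nob1 (chr8:107425112-107425171, minus strand), Gm13404 (chr2:33973565-33973624, plus strand), Mterf1a (chr5:3894010-3894069, plus strand), Itga8 (chr2:12301987-12302046, minus strand), Gm41414 (chr16:5306750-5306809, plus strand), Gm46521 (chr15:80225393-80225452, minus strand) and Gm33457 (chr2:32713220-32713279, plus strand). Pds5b (chr5:150673669-150673728, plus strand), which encodes a cohesin regulator, was added from the cohesin genes.
Hoxd3os1: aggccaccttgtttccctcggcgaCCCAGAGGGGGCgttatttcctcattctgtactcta
Nob1: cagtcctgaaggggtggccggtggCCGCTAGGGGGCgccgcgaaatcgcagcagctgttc
Gm13404: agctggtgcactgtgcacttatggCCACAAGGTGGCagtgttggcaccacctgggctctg
Mterf1a: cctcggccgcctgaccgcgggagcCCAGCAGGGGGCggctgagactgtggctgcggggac
Itga8: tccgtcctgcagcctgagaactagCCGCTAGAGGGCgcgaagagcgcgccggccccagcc
Gm41414: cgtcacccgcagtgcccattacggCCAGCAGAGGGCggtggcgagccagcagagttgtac
Gm46521: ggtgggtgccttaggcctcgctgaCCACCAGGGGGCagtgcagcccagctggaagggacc
Gm33457: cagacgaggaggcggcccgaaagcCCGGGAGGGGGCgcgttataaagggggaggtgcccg
Pds5b: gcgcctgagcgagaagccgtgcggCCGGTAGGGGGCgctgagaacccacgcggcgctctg

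At the promoter of Nob1, which encodes a nuclease of ribosome maturation, fold enrichment was 76.1 and 70.2 in quiescent and 57.9 and 57.9 in proliferating STAG2 libraries. STAG1 gave 59.8 and 71.7 in quiescent and 54.4 and 65.3 in proliferating cells. CTCF gave 111 and 77.6 in quiescent and 79.1 and 93.9 in proliferating cells. Fold enrichment is the authors' value for a peak over a control that the peak names call input, while the label of the input sample names an IgG antibody, so which of these the folds are relative to is not settled here. Peaks were ranked by fold within a list only, and folds of different libraries are set side by side as deposited, since their depth is unknown. The mean summit, the base of highest signal in a peak, lay 20 bp to the 3′ side of the centre of the motif for STAG2, 18.3 bp for STAG1 and 11.3 bp for CTCF. At Pds5b these offsets were 16.3 bp for STAG2, 27.8 bp for STAG1 and 0.75 bp for CTCF. At Gm13404, an unnamed gene model, they were 8.25 bp for STAG2, 24.8 bp for STAG1 and -5.00 bp for CTCF. At Itga8, which encodes an integrin subunit, they were 23.5 bp for STAG2, 30.8 bp for STAG1 and 21.3 bp for CTCF. Promoters of Gnas and of H3c15, a histone gene, are not printed and differed from this order. At Gnas (site chr2:174283448-174285500) the offsets were -24 bp for STAG2, -11 bp for STAG1 and -18 bp for CTCF. At H3c15 they were 18.75 bp for STAG2, -273 bp for STAG1 and 87.25 bp for CTCF. A match was not always where the summits were. At Hoxd3os1, a noncoding gene of the Hoxd cluster, the mean summits of STAG2, STAG1 and CTCF lay -245.5, -212.75 and -229.5 bp from the match, and at Gm33457 they lay 412, 414 and 404 bp from it.

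Over all promoters with a usable match, STAG2 and STAG1 summits lay on the 3′ side of the CTCF motif and CTCF summits lay on the motif itself, by the median over sites. The comparison used the 403 constitutive sites with 1 peak in every library and exactly 1 match in the promoter table to the core of the CTCF motif, of which 192 were on the plus strand and 211 on the minus strand. A match was 12 bases that begin with CC, go on after any 3 bases with AG, and end with GGC, where the bases between AG and GGC are GG, GT, AT or AG, as the capitals of the printed promoters show. Sequence and summit positions were not used to choose the sites. The median offset of STAG2 was 19.5 and 18.5 bp in quiescent and 15.5 and 18.5 bp in proliferating libraries. The median offset of STAG1 was 18.5 and 18.5 bp in quiescent and 19.5 and 19.5 bp in proliferating libraries. The median offset of CTCF was -0.5 and 2.5 bp in quiescent and 0.5 and 0.5 bp in proliferating libraries. The medians of the 8 STAG libraries and of the 4 CTCF libraries did not overlap, while those of STAG2 and STAG1 did. By mean offset, which far summits move, STAG2 proliferating replicate 1 lay at -9.68 bp, inside the range of the CTCF libraries of -14.3 to -7.96 bp, and the other 7 STAG libraries lay at 3.30 to 13.6 bp. The medians averaged 18.5 ± 1.31 bp in STAG libraries (SD, n = 8) and 0.75 ± 1.26 bp in CTCF libraries (SD, n = 4). The difference of 17.75 bp had p = 0.00444 in an exact two-sided permutation test of the STAG and CTCF labels within state, the smallest that its 225 arrangements can give. In single STAG libraries the summit lay 3′ of the motif centre at 61.5% to 64.5% of the 403 sites, and in single CTCF libraries at 49.4% to 52.9%. Taking sites and not libraries, the mean STAG summit was 3′ of the mean CTCF summit at 291 sites (72.2%). Of the 266 sites where the motif lay within 50 bp of the CTCF summits, 219 (82.3%) had the STAG summit on the 3′ side.

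**Figure D1:**
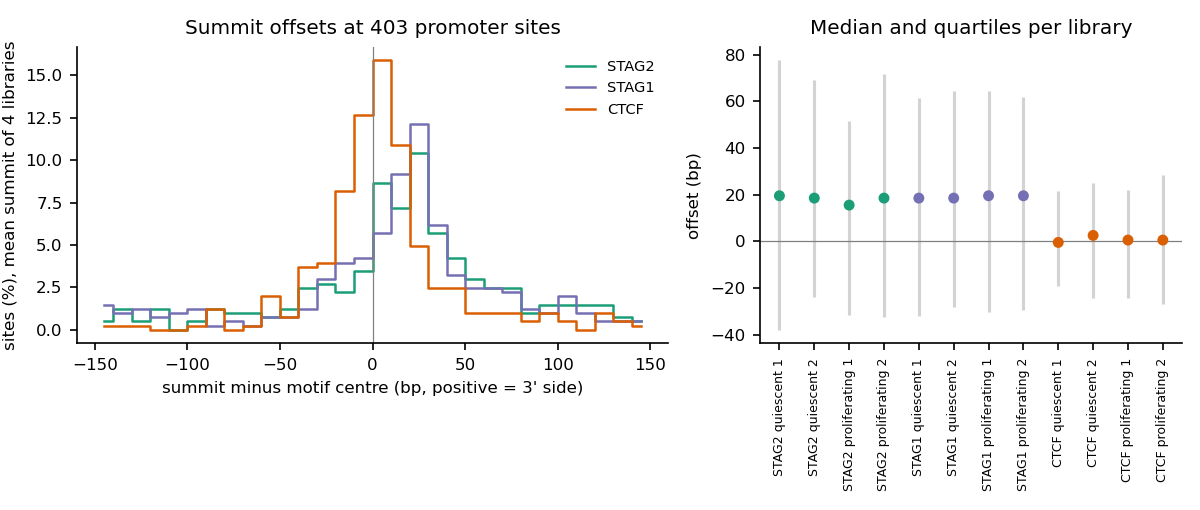
Offsets of peak summits from the centre of the CTCF motif at 403 constitutive promoter sites, in bp and positive on the 3′ side of the motif. The left panel gives the percent of sites in bins by the mean summit of the 4 libraries of an antibody, and the right panel gives the median (point) and quartiles (line) of each library. STAG2 and STAG1 medians sit between 15.5 and 19.5 bp and CTCF medians between -0.5 and 2.5 bp, with wide quartiles over the sites of a library.

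Offsets were also compared by the number of libraries at a site. Where all 12 libraries had a peak, library medians ran from 16.5 to 21 bp for STAG over 500 to 528 sites a library. For CTCF they ran from -0.5 to 2.5 bp over 498 to 504 sites. Where 9 to 11 libraries had a peak, library medians ran from 23.5 to 63 bp for STAG over 55 to 80 sites a library, and from -9.5 to 12.5 bp for CTCF over 63 to 77 sites. Where 1 to 8 libraries had a peak, they ran from -58 to 61 bp for STAG over 12 to 42 sites and from 1.5 to 6.5 bp for CTCF over 42 to 66 sites. The STAG range at 9 to 11 libraries lay above that at 12 libraries, and the other ranges overlapped those at 12 libraries. These differences between classes of sites were not tested.

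Irrespective of direction, STAG2 and STAG1 summits lay near the CTCF summit in both states. At the 13844 constitutive sites with 1 peak in every library (76.7%), the median absolute distance to the mean CTCF summit of the same state was 27 and 27 bp in quiescent and 26.5 and 28.5 bp in proliferating STAG2 libraries. In STAG1 libraries it was 27.5 and 27 bp in quiescent and 27.5 and 28 bp in proliferating cells. The CTCF summits of the 2 replicates of a state lay a median of 18 and 21 bp apart. STAG2 averaged 27.25 ± 0.866 bp and STAG1 27.5 ± 0.408 bp (SD, n = 4 each), a difference of -0.25 bp with p = 0.833 in an exact two-sided permutation test of the antibody labels. Quiescent STAG libraries averaged 27.1 ± 0.25 bp and proliferating ones 27.6 ± 0.854 bp (SD, n = 4 each), a difference of -0.5 bp with exact permutation p = 0.556. Both differences were within the spread between libraries, and the smallest p that 36 arrangements allow is 0.056. The sign of the STAG2 difference turned without STAG2 proliferating replicate 1, to 0.25 bp. The sign of the difference between states turned without CTCF quiescent replicate 1 or replicate 2, to 1.125 and 1.625 bp, and without CTCF proliferating replicate 1 it was -4.375 bp.

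The peak lists held 33745 to 70216 peaks on chromosomes 1 to 19. The files carry no read totals, so the sequencing depth is unknown, and a peak missing from a list may reflect the depth of that list. Constitutive sites took 50.7% and 57.0% of the peaks in quiescent and 41.4% and 43.3% in proliferating STAG2 lists. They took 55.7% and 53.8% in quiescent and 50.7% and 38.9% in proliferating STAG1 lists. In CTCF lists they took 38.6% and 28.0% in quiescent and 34.8% and 36% in proliferating cells. Within each antibody the longest list gave the lowest share, and over all 12 lists CTCF quiescent replicate 2, with 70216 peaks, gave the lowest. The strongest 1000 peaks of each list lay in constitutive sites at 98.4% to 100%, and the last 10000 at 4.91% to 24.9%. Median fold enrichment was 12.9 to 22.5 at constitutive sites and 5.40 to 7.48 at the other sites, over the 12 libraries.

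**Figure D2:**
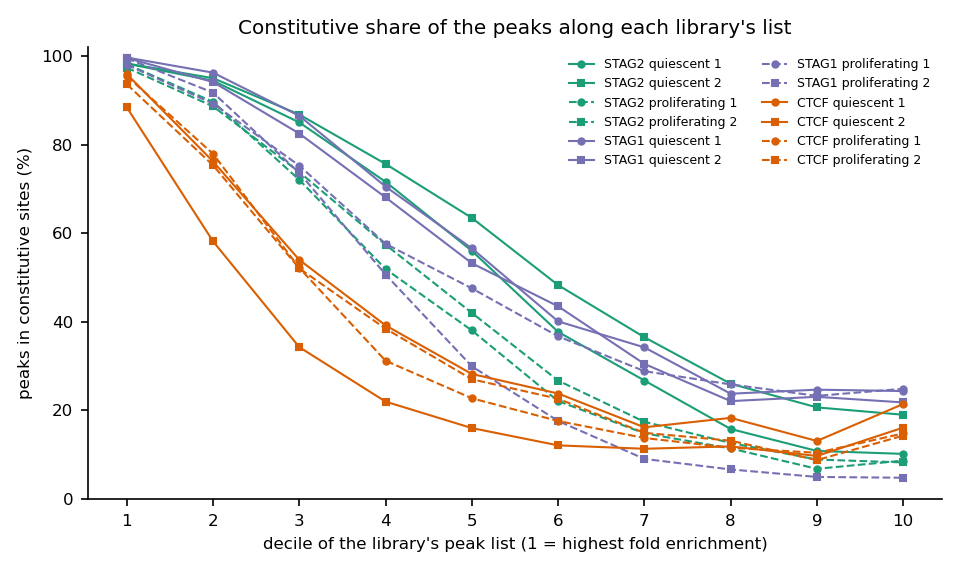
Percent of peaks lying in constitutive sites (y) along each library's peak list cut into deciles by fold enrichment (x, the strongest decile at 1), with 1 line per library. The median over libraries is 98.0% in the strongest decile, 10.7% in the ninth and 15.5% in the weakest.

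Sites found in every library of 1 replicate were mostly found in the other. Of 20536 sites with a peak in all 6 libraries of replicate 1, 18070 (88.0%, exact binomial interval 87.5% to 88.4%) had a peak in all 6 libraries of replicate 2. Of the sites with a peak in 1 to 5 replicate 1 libraries, 4.22% did. The shares in single replicate 2 libraries ran from 94.9% in quiescent STAG2 to 99.0% in proliferating STAG1. In the other direction, 18083 of 20709 sites of replicate 2 (87.3%) had a peak in all 6 libraries of replicate 1. The intervals cover counting error only.

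The strongest constitutive site after ranking within each library lay at the end of Ivd, an enzyme of leucine breakdown, and the next lay near Mab21l3. The third lay in Coq7, an enzyme of ubiquinone synthesis, at chr7:118517696-118519257. Its folds were 89.8 and 72.3 in quiescent and 91.8 and 81.8 in proliferating STAG2 libraries, and 82.8 and 77.4 in quiescent and 72.9 and 85.3 in proliferating STAG1 libraries. CTCF gave 118 and 81.3 in quiescent and 86.8 and 89.3 in proliferating cells. The site at Kiss1r, the kisspeptin receptor, and the site in Itgb7, an integrin subunit, followed with mean rank percentiles of 99.8 and 99.8.

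Just inside the rule lay the site at Tent5c, a poly(A) polymerase, whose weakest peak had a −log10 q of 1.31 in the deposited lists. Its folds were 13.1 and 10.9 in quiescent and 8.46 and 8.34 in proliferating STAG2 libraries, 6.04 and 5.04 in quiescent and 5.44 and 6.87 in proliferating STAG1 libraries, and 2.33 and 6.47 in quiescent and 6.71 and 6.04 in proliferating CTCF libraries. The sites in Kmt2d, a histone H3 lysine methyltransferase, and in Plekhg6 were next, with a weakest −log10 q of 1.35 at each. Just outside it, 3552 sites lacked a peak in 1 library only. The strongest of these lay near Nt5e, near Hspa9 and near Igfbp3, at mean rank percentiles of 70.3, 67.9 and 65.5 in their 11 libraries, and each lacked only CTCF proliferating replicate 2. Of the sites missing in 1 library, 2349 (66.1%) lacked a quiescent library and 1203 lacked a proliferating one. CTCF quiescent replicate 1 was the missing library most often, at 648 sites, and STAG1 proliferating replicate 2 least often, at 49.

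Constitutive sites lay at the ends of genes more often than the other sites did. Of 18042 constitutive sites, 7429 (41.2%) overlapped the 1 kb on either side of an end of a protein-coding gene, against 11.8% of the 94283 sites of 1 to 11 libraries. On the chromosomes with annotated strand, which leave out chromosome 18, 5821 of 17557 constitutive sites (33.2%) lay within 1 kb of a gene start, against 7.48% of the other sites. Inside genes but away from their ends lay 31.1% of constitutive sites and 49.4% of the others, and outside genes 27.7% and 38.8%. The share at gene ends went up with the number of libraries, being 7.15% at 1 library, 22.5% at 8, 37.5% at 11 and 41.2% at 12. Constitutive sites were wider, with a median of 1025 bp against 511 bp, but by the midpoint of a site the shares were still 36.5% and 9.97%. The difference depended on the sites compared. Against sites of 9 to 11 libraries it was 7.50 percentage points. With the 20000 best peaks of each library it was 4.55 percentage points (33.8% against 29.3%), where it is 29.3 points over all sites. Within constitutive sites, the share at gene ends was 65.2% in the weakest decile by mean rank of the 12 libraries and 31.4% in the strongest. The part of peak strength was not tested.

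**Figure D3:**
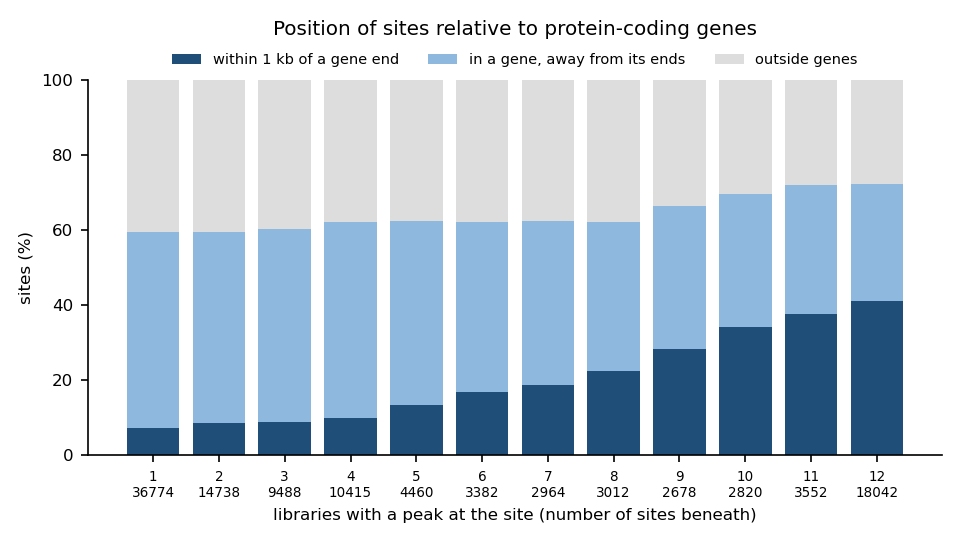
Position of merged sites relative to protein-coding genes, as the percent of sites (y) in each class of the number of libraries with a peak (x, with the number of sites below). The dark part, within 1 kb of a gene end, goes from 7.15% at 1 library to 41.2% at 12 libraries.

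Promoters with a constitutive site were rich in CG and carried the CTCF motif more often than others. In the RefSeq table, which runs from 250 bases before to 50 bases after a start, 8053 of 31396 promoters (25.6%) overlapped a constitutive site. The CTCF motif as given above, on either strand, occurred in 7.90% of these, in 3.36% of promoters with sites of 1 to 11 libraries, in 1.13% of promoters with none and in 3.37% of all promoters. Most promoters with a constitutive site therefore held no match to these letters in this window. Median GC content was 64.3% at constitutive promoters, 59% at promoters with other sites and 47% at promoters with none, and the observed to expected ratio of CG was 0.807, 0.686 and 0.202. Over these classes GC content moved with the CTCF motif share, but not over finer ones. Promoters with sites of 9 to 11 libraries had a median GC of 61.7% and the motif in 3.05%. Those with sites of 1 to 8 libraries had 56.7% and 3.62%. Among constitutive promoter sites, the decile leaning most to STAG had 66% and 3.50%, and the decile leaning most to CTCF 62% and 20.1%. The part of GC content was not tested. The motif of NRF1, an activator of mitochondrial and housekeeping genes, matched in 10.3% of constitutive promoters, in 11.4% of promoters with sites of 9 to 11 libraries and in 4.68% of all. The motif of ETS factors, CCGGAAGT, matched in 7.69%, 9.53% and 3.95%, and that of YY1 in 2.10%, 2.33% and 0.981% of the same classes. These shares were thus no higher at constitutive promoters than at promoters with sites of 9 to 11 libraries, whereas the CTCF motif was in 7.90% and 3.05%. The rule required a peak in every CTCF library, while sites of fewer libraries could lack CTCF peaks. The higher share of the CTCF motif is therefore not independent of the choice of sites. The cell cycle homology region TTTGAA, which the DREAM complex binds through LIN54, matched in 9.39% of constitutive promoters and in 17.6% of all. Each was searched on both strands, and a promoter could match several.

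Ranks within the constitutive sites followed the antibody. Over the 18042 sites, Spearman's rho between the folds of libraries was 0.856 to 0.923 for CTCF with CTCF, 0.838 to 0.922 for STAG1 with STAG1 and 0.785 to 0.870 for STAG2 with STAG2. Between antibodies it was 0.552 to 0.792 for STAG2 with STAG1, 0.458 to 0.609 for STAG2 with CTCF and 0.507 to 0.681 for STAG1 with CTCF. These describe sites that share their input and their chromatin, and carry no test.

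The sites that ranked higher for STAG2 than for STAG1 were mostly at gene ends, and those that ranked higher for STAG1 were mostly away from them. In the decile of sites whose mean rank was highest in STAG2 relative to STAG1, 72.0% were at gene ends and 65.1% at gene starts. In the decile leaning most to STAG1, 11.7% were at gene ends, 5.88% at gene starts and 46.8% outside genes. By the midpoint of a site the shares at gene ends were 66.7% and 9.31%, and the median width was 1376 bp and 758 bp. Among 8 pairs of a STAG2 and a STAG1 library of the same state, the decile leaning to STAG2 had 36.1% to 80.1% at gene ends and the decile leaning to STAG1 8.98% to 38.0%. The gradient was missing in 1 of the 8, STAG2 proliferating replicate 1 with STAG1 proliferating replicate 2, where the shares were 36.1% and 38.0%.

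In single libraries, the sites at gene ends had a median rank percentile of 54.4 and 47.5 in quiescent and 40.7 and 47.1 in proliferating STAG2 libraries. They had 35.5 and 34.6 in quiescent and 31.9 and 40.8 in proliferating STAG1 libraries, and 41.0 and 34.1 in quiescent and 36.2 and 43.7 in proliferating CTCF libraries. A value under 50 says that sites at gene ends ranked below the other constitutive sites, as they did in 11 of the 12 libraries. STAG2 ranked these sites higher than STAG1 in the quiescent libraries without overlap, and in proliferating cells the STAG2 and STAG1 libraries overlapped. No test was made, because fold enrichment entered the choice of sites.

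Between STAG and CTCF the share of sites with the motif differed more than their position. Among promoter sites, the CTCF motif was found in 3.50% of the decile leaning most to STAG and in 20.1% of the decile leaning most to CTCF. The shares at gene ends were 53.4% in the decile leaning to STAG, 47.1% in the decile leaning to CTCF and 37.4% to 40.2% in the deciles between them. By the mean rank of all 12 libraries, the strongest decile had 31.4% of its sites at gene ends and a motif in 20.9% of its promoter sites. The weakest decile had 65.2% at gene ends and a motif in 3.37%.

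**Figure D4:**
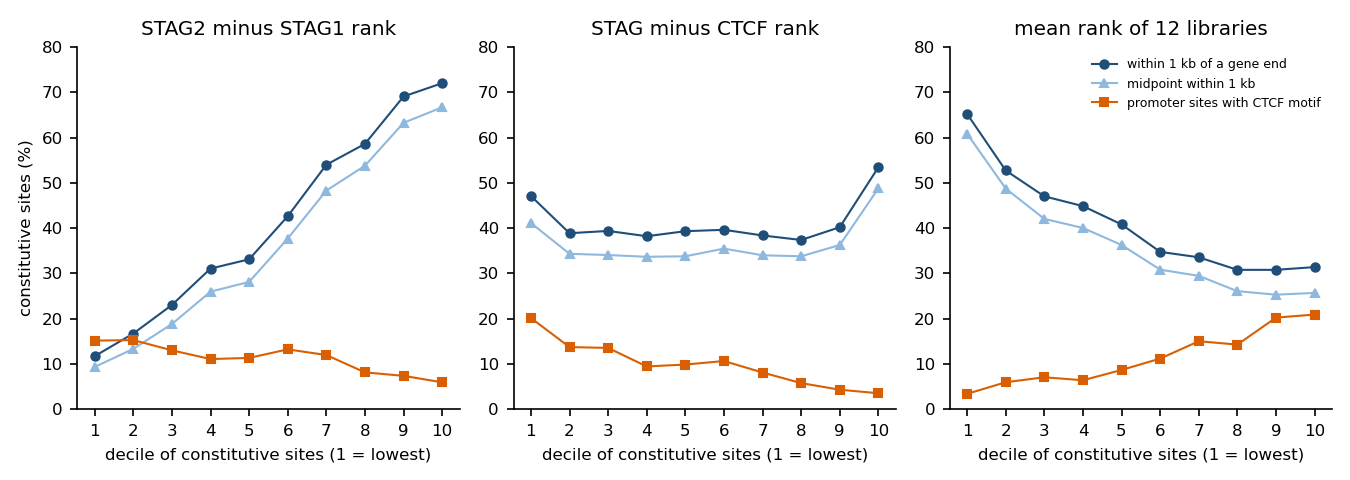
Constitutive sites cut into deciles (x) by the difference of mean rank percentile between STAG2 and STAG1, between STAG and CTCF, and by the mean rank of all 12 libraries. The y axis gives the percent of sites at gene ends (dark circles), with their midpoint there (light triangles), and the percent of promoter sites with a CTCF motif (orange squares). In the left panel the share at gene ends goes from 11.7% to 72.0%, and in the middle panel the motif share goes from 20.1% to 3.50%.

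The 5 sites leaning most to STAG2 had rank percentiles of 81.7 to 98.3 in the STAG2 libraries and of 0.0970 to 34.9 in the STAG1 and CTCF libraries. At the ends of Abca7, a lipid transporter, and Cnn2, an actin-binding calponin (chr10:79995841-79996950), STAG2 folds were 40.8 and 32.0 in quiescent and 33.5 and 34.8 in proliferating libraries. STAG1 folds there were 4.00 and 3.2 in quiescent and 5.75 and 7.00 in proliferating cells, and CTCF folds were 3.6 and 6.4 in quiescent and 5.40 and 4.20 in proliferating cells. The site at Mettl1, a tRNA methyltransferase, and Eef1akmt3, which methylates an elongation factor, had STAG2 folds of 55.6 and 39.9 in quiescent and 37.8 and 35.1 in proliferating cells. Its STAG1 folds ran from 3.4 to 8.0 and its CTCF folds from 4.5 to 9.5. At Vash1, a tubulin carboxypeptidase, STAG2 gave 57.9 and 53.4 in quiescent and 29.9 and 32.4 in proliferating cells, and none of the other 8 libraries exceeded 10.5. The sites in Csnk1e, a casein kinase, and at Mcrip2 were alike, with STAG2 at 29.7 to 39.7 and the other libraries at 2.75 to 8.50. The sites were chosen by their difference in rank, which sets these libraries apart.

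At the 5 sites leaning most to STAG1, STAG1 folds ran from 20.5 to 49.4, STAG2 folds from 3.0 to 20.5 and CTCF folds from 3.63 to 23.0. At Chd3, a chromatin remodeller (chr11:69367815-69369613), STAG1 folds were 38.3 and 43.7 in quiescent and 38.7 and 35.8 in proliferating libraries. STAG2 folds there were 17.2 and 12.6 in quiescent and 11.8 and 12.6 in proliferating cells, and CTCF folds 6.05 and 5.52 in quiescent and 5.09 and 9.62 in proliferating cells. At the end of Eif4b, a translation initiation factor, STAG1 gave 30.6 and 26.7 in quiescent and 24.3 and 27.4 in proliferating cells, against 9.03 to 9.72 for STAG2 and 6.0 to 7.29 for CTCF. A site in Pafah1b2, a subunit of an acetylhydrolase, had STAG1 folds of 20.5 and 27.8 in quiescent and 20.5 and 30.5 in proliferating cells, and STAG2 folds of 11.2 and 7.25 in quiescent and 3.0 and 8.16 in proliferating cells. The others were a site near Dynlrb2 and a site at Ggn and Spred3, the last an inhibitor of the Ras pathway. Sites leaning to CTCF included one in Rexo1, an RNA exonuclease, where CTCF folds were 64.4 and 57.4 in quiescent and 68.4 and 59.4 in proliferating libraries and STAG folds 4.99 to 7.98. At Wwox, an oxidoreductase gene at a fragile site, CTCF folds were 48.8 and 53.0 in quiescent and 50 and 71.3 in proliferating libraries, and STAG folds 4.5 to 9.25. In Nuf2, a kinetochore gene, CTCF gave 91.3 and 67.9 in quiescent and 80.8 and 125 in proliferating cells, and STAG 5.99 to 17.5. A site near Lbx1, a homeobox gene, and one in Espn, an actin-bundling protein, completed the 5.

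**Figure D5:**
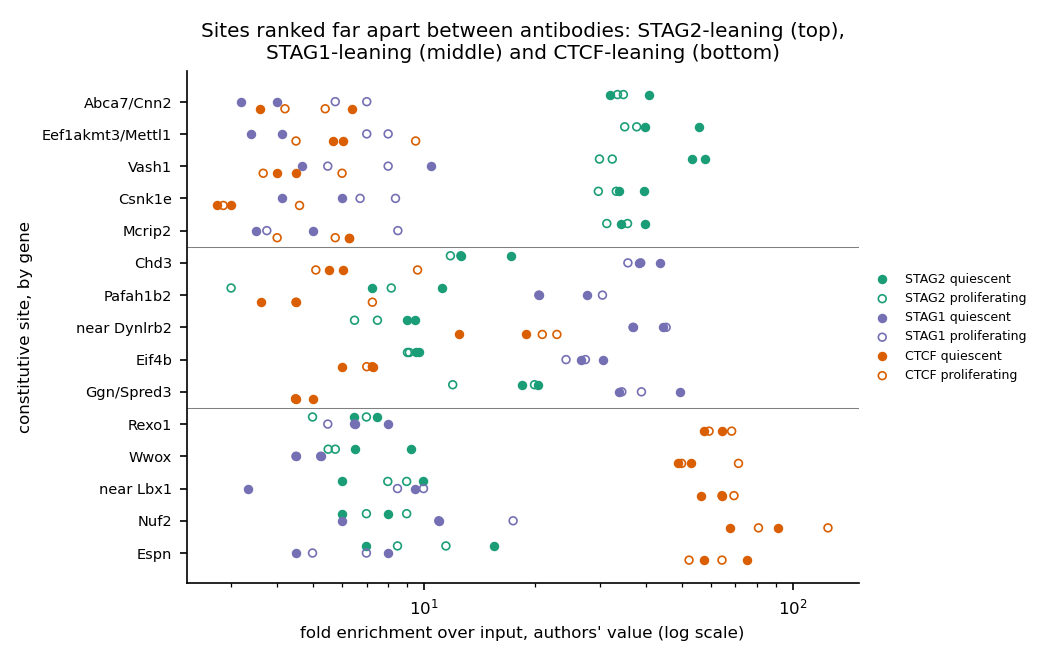
Fold enrichment on a log axis (x) of the 5 constitutive sites leaning most to STAG2, to STAG1 and to CTCF (y, named by gene), with 1 point per library, filled for quiescent and open for proliferating cells. STAG2 libraries lie at 29.7 to 57.9 at the STAG2-leaning sites, and CTCF libraries at 48.8 to 125 at the CTCF-leaning sites.

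Between states, constitutive sites changed their place in the ranking of an antibody at shares near or under those of all shared sites. A site counted as shifted when both quiescent libraries ranked it above, or below, both proliferating libraries by a mean of at least 20 percentile points. For STAG2, 1146 constitutive sites (6.35%) ranked higher in quiescent cells, with 6.67% of all 26403 sites shared by the 4 libraries as background, and 923 (5.12%) ranked lower, with 6.84% as background. For STAG1, 416 (2.31%) ranked higher against a background of 2.98%, and 444 (2.46%) lower against 2.94%. For CTCF, 237 (1.31%) ranked higher against a background of 6.93%, and 1014 (5.62%) lower against 6.9%. The background includes the constitutive sites, and among the other shared sites alone the shares were in every case higher than among constitutive sites. For STAG2, 7.37% of the 8361 other sites ranked higher and 10.5% lower. For STAG1 it was 4.73% and 4.17% of 6978, and for CTCF 12.7% and 8.22% of 17588. Ranks were taken over all shared sites, so a site near the top of the ranking could not rise by 20 points. The part of this limit in the counts of sites ranking higher and lower is not known. No test was made of these counts.

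The shifted sites differed in position. Of the STAG2 sites, 68.2% of those ranking higher in quiescent cells were at gene ends and 17.8% of those ranking lower, against 41.2% of all constitutive sites. Of the CTCF sites it was 19% of those ranking higher and 53.3% of those ranking lower, and of the STAG1 sites 41.1% and 53.8%. Of the STAG2 libraries, quiescent replicate 1 and proliferating replicate 1 gave the highest and the lowest median rank at gene ends (54.4 and 40.7), while the 2 libraries of replicate 2 gave 47.5 and 47.1. The part of single libraries in the STAG2 pattern was not tested. Of the 1146 STAG2 sites ranking higher, 112 were also among the 416 STAG1 sites ranking higher, 9.77% of the STAG2 and 26.9% of the STAG1 sites.

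Among the sites that ranked higher for STAG2 in quiescent cells, the largest shift was in Ppp2r2b, a regulatory subunit of protein phosphatase 2A (chr18:42898374-42899961). STAG2 folds were 37.4 and 24.4 in quiescent and 6.49 and 7.49 in proliferating libraries. STAG1 at the same site gave 15.5 and 18 in quiescent and 5.99 and 9.48 in proliferating cells, one of the 5 largest STAG1 shifts. CTCF gave 16.5 and 24 in quiescent and 21 and 32.9 in proliferating cells. At the end of Cdyl2, a chromodomain protein, STAG2 gave 16.8 and 17.5 in quiescent and 5.44 and 4.80 in proliferating cells. At the end of Wnk2, a kinase, it gave 17.5 and 17.7 in quiescent and 5.60 and 5.5 in proliferating cells. A site in Msantd2 and one at Shisa3, an inhibitor of Wnt signalling, came next. Among the sites that ranked lower for STAG2 in quiescent cells, a site near Fasl, the gene of the Fas ligand, gave 6.67 and 9.67 in quiescent and 26.0 and 19.5 in proliferating cells. A site in Bop1, a ribosome biogenesis gene, gave 5.67 and 7.67 in quiescent and 17.0 and 13.7 in proliferating cells. The others were a site in Wdr7, one near Ppm1b and one near Gapt.

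For STAG1, the site in Gnas, an imprinted gene of a G protein subunit (chr2:174298042-174301020), gave folds of 14.5 and 13 in quiescent and 4.99 and 6.99 in proliferating libraries. A site near Dmrt2, one at Ctnnd2 and one near Ppp1r3b also ranked higher for STAG1 in quiescent cells. At the ends of Ncaph2, a condensin subunit, and Lmf2, STAG1 gave 5.66 and 6.34 in quiescent and 15.1 and 18.5 in proliferating cells. A site near Tpcn2 and one at Sp1 also ranked lower for STAG1 in quiescent cells. For CTCF, the site at Nek2, a mitotic kinase (chr1:191821096-191822195), gave 4.33 and 4.00 in quiescent and 13 and 16.0 in proliferating libraries. The site at Cdkn2d, an inhibitor of CDK4 and CDK6, gave 6.42 and 7.34 in quiescent and 22 and 17.7 in proliferating cells. Dgkh, a diacylglycerol kinase, held both a site that ranked lower for CTCF in quiescent cells, at 6.67 and 5.67 in quiescent and 22.8 and 15.0 in proliferating cells, and a site that ranked higher, at 12.0 and 30.9 in quiescent and 7.98 and 4.99 in proliferating cells. In Mkx, a homeobox gene, CTCF gave 38.4 and 40.4 in quiescent and 4.99 and 14 in proliferating cells. Each of these was chosen for its shift, so that its groups do not overlap by choice.

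Of 20665 protein-coding genes on chromosomes 1 to 19, 7929 (38.4%) had a constitutive site at an end. Gene lists are read against that share. Of the cohesin core genes, Smc3 alone of the 7 measured had one. No other had a site of any number of libraries at an end. The others were Rad21, Stag1, Rec8, Smc1b, Rad21l and Stag3. Of the subunits of the ring named above, only Smc3, Rad21 and Stag1 were thus measured. Smc3 folds were 31.5 and 29.3 in quiescent and 26.3 and 28.9 in proliferating STAG2 libraries, and 28.0 and 19.7 in quiescent and 25.4 and 36.6 in proliferating STAG1 libraries. CTCF gave 35.4 and 44.0 in quiescent and 34.9 and 43.1 in proliferating cells. Of the cohesin regulators with Ctcf, 7 of 18 had a constitutive site (38.9%), namely Pds5b, Pds5a, Ctcf, Ddx11, Maz, Zfp143 and Esco1. At the promoter of Ctcf itself the folds of CTCF were 43.6 and 35.3 in quiescent and 30.7 and 45.6 in proliferating cells. At Zfp143, a zinc finger activator, STAG2 folds were 29.4 and 21.1 in quiescent and 20.8 and 19.3 in proliferating cells, and CTCF folds were 7.50 and 14.3 in quiescent and 11.4 and 10.0 in proliferating cells.

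A list of 28 genes held the EGF receptor family, its ligands, MAPK feedback genes and transcription factors such as Fos, Jun and Egr1. Of these, 24 (85.7%) had a constitutive site at an end. So had 10 of 13 genes listed for MuvB and for DREAM, the complex that represses cell cycle genes in quiescence, with Foxm1 among the 10. Of 7 CDK inhibitors 6 did, and of 47 DREAM target genes 21 (44.7%), a share near that of all coding genes. Erbb3, a receptor of the EGF receptor family, had STAG2 folds of 46.0 and 33.7 in quiescent and 31.0 and 28.0 in proliferating libraries, STAG1 folds of 18.5 and 19.6 in quiescent and 17.7 and 26.7 in proliferating libraries, and CTCF folds of 75.7 and 54.3 in quiescent and 71.7 and 83.4 in proliferating libraries. Chaf1b, a histone chaperone subunit and DREAM target, ranked highest of its list, with all 12 folds between 39.9 and 64.9. At Cdkn1c, which encodes the CDK inhibitor p57, STAG2 gave 41.7 and 33.2 in quiescent and 11.2 and 23.5 in proliferating cells, and the other 8 libraries 5.00 to 9.0. The shares of these lists describe counts only, since the lists differ from other genes in ways not compared here.

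Of 18 urothelial markers 11 had a constitutive site at an end (61.1%), beside 3 of 9 immune, 3 of 8 fibroblast and 3 of 7 neuron markers. Upk3b, a uroplakin of the apical plaque, ranked highest of the urothelial markers, with STAG2 folds of 69.1 and 58.4 in quiescent and 59.8 and 44.8 in proliferating cells. Its STAG1 folds were 45.9 and 57.9 in quiescent and 48.4 and 61.8 in proliferating cells, and its CTCF folds were 73.3 and 61.4 in quiescent and 66.4 and 68.4 in proliferating cells. Krt8, a keratin of simple epithelia, and Cdh1, E-cadherin, followed with mean rank percentiles of 95 and 94.0. A constitutive site was no mark of urothelial genes, as Spi1, a transcription factor of myeloid cells, had all 12 folds between 33.5 and 59.1. Of 14 PPAR gamma targets 6 had a site (42.9%), among them Acsl1, an acyl-CoA synthetase, where STAG2 gave 33.4 and 16.7 in quiescent and 19.6 and 15.5 in proliferating cells and CTCF 5.33 to 9.98.

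Clustered gene families differed in their shares. Of 63 replication-dependent histone genes 50 had a constitutive site at an end (79.4%), although neighbouring histone genes share sites. The site between H2bc3 and H3c3 had STAG2 folds of 36.9 and 22.4 in quiescent and 21.3 and 17.9 in proliferating cells. Of 1100 olfactory receptor genes 2 had one (0.182%), Olfr658 and Olfr1373, and 37 had a site of any number of libraries. Of 57 clustered protocadherin genes 3 did (5.26%), Pcdhgb4, Pcdhgb7 and Pcdhgc3. Of 39 Hox genes 17 did (43.6%), and the site at Hoxa9 had the highest rank of all listed genes, with folds of 90.5 and 70.2 in quiescent and 77.6 and 63.3 in proliferating STAG2 libraries and CTCF folds of 69.0 to 80.6. Of 79 ribosomal protein genes 40 did (50.6%), of 452 zinc finger genes 178 (39.4%), of 13 housekeeping genes 7 (53.8%) and of 19 imprinted genes 7 (36.8%). At Eef1a1, a translation elongation factor, STAG2 gave 13.6 to 21 and CTCF 6.70 to 8.48.

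Counting the gene body and 1 kb around it, 10056 genes (48.7%) held a constitutive site. Gse1, a chromatin-associated coiled-coil protein, held the most, 22, with folds from 3.02 to 86.3. Shank2, a synaptic scaffold, held 14, Rbfox3, a neuronal splicing factor, 12, and Camta1, a transcription activator, and Ctif, a translation factor, 11 each. These genes are long, from 266 kb for Ctif to 802 kb for Camta1. Counting sites of any number of libraries, Gse1 held 119, Shank2 60, Rbfox3 55, Camta1 47 and Ctif 37. Of all autosomal sites, 16.1% were constitutive. The part of gene length and of the number of sites in these counts was not tested. Of 919 miRNA hairpins of the RefSeq table, 83 lay in a constitutive site (9.03%), among them Mir2861 and Mir3960, which share a site with the Gm33457 promoter printed above.

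Constitutive sites had a median spacing of 37.1 kb, with quartiles of 12.6 and 97.6 kb. Within 10 kb of the next lay 21.2%, and 444 gaps were over 1 Mb. The densest 100 kb windows, against a median of 3 constitutive sites in windows counted from each site, held 15 each. One covered interferon alpha genes of chromosome 4 (chr4:88757039-88857038), where 15 of 20 sites were constitutive and 14 of these were at gene ends, with folds from 7.20 to 118. These are tandem copies, and how the authors' mapping treated reads of near-identical genes is not given in the sources used here, so the sites of the interferon genes are uncertain. The other covered Taldo1 to Tspan4 on chromosome 7, with 15 of 35 sites constitutive. Windows at Gna11 and Tle5 on chromosome 10 held 14 of 38, at Nelfb and Tubb4b on chromosome 2 held 13 of 37, and at Rapgef3, Slc48a1 and Hdac7 on chromosome 15 held 13 of 38.

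The longest stretches without a constitutive site held few genes. A stretch of 12.2 Mb on chromosome 15 (chr15:13174239-25411936) contained 8 coding genes, among them Cdh6, Cdh9, Cdh10, Cdh12 and Cdh18, which encode cadherins, and 81 sites of fewer libraries. One of 8.46 Mb on chromosome 6 contained Ctnna2, an alpha catenin, and genes of the Reg family. One of 7.88 Mb on chromosome 8 contained only Cdh8 and Cdh11 among coding genes. Those of 6.47 Mb on chromosome 14, with Pcdh9 and Pcdh20, and of 6.19 Mb on chromosome 1, with Adgrb3, followed. Per Mb of annotated chromosome, constitutive sites ran from 4.86 on chromosome 3 to 14.1 on chromosome 11, and these chromosomes had 6.15 and 13.2 coding genes per Mb. The share of a chromosome's sites that were constitutive varied less, from 14.6% on chromosomes 18 and 14 to 18.2% on chromosome 19.

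A few sites stood apart by width. The width ran from 459 to 38706 bp and 26 sites were over 5 kb. The widest, at chr9:2999800-3038505, lay 316079 bp from the nearest gene end and had low folds in every library, from 2.41 to 4.13. The third widest lay on chromosome 17, 104603 bp from Esp38 as the nearest gene, and had folds of 3.21 to 7.75. How the authors' mapping treated reads at these wide sites of low fold is not given in the sources used here. They are therefore uncertain as binding sites. The other wide sites, at Ccdc9b and Irf2bp2 and in Midn, had folds of 13.9 to 47.9.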

How the data were processed

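The authors deposited 1 peak list for each of the 12 ChIP libraries. The submitters' processing notes name bcl2fastq, BWA, Picard, MACS2, HOMER and mm10, and their versions and settings are not given in the sources used here. Per the file headers' peak names, each library was compared with an input, and replicates were not pooled. The deposited values are a fold enrichment ratio, −log10 p and −log10 q for each peak, a score that was not used, and the summit position. Without read totals no count test or interval on depth was possible. The input sample, whose label names IgG, was not analysed here.

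Peaks were merged with Python 3.11.15 (pandas 2.3.3, numpy 2.4.6, scipy 1.17.1). A site's value in a library is its highest fold, ranked as a percentile within the library. Genes and promoters come from RefSeq on GRCm38.p6. The steps were tested on simulated data. Exact permutation tests used libraries as the unit. Within a state, same-numbered replicates deviated together in log2 fold in 6 of 6 pairs of groups (r = 0.142 to 0.439), and across states in 0 of 9, so numbers were taken as pairs only within a state. Named sites are the 5 most extreme of each ranking, the 3 on each side of the rule, up to 5 of each list by rank, and 8 printed promoters. Some of the named sites are not reported here. The site widths and miRNA hairpins were chosen after their values were seen. The members and lists were chosen with earlier results of these data known.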

Additional observations from a re-analysis of the deposited data

Results flagged for a closer look

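The rule left out the sex chromosomes and unplaced sequence, where 208 of 2326 sites had a peak in all 12 libraries (8.94%). On the X chromosome it was 206 of 2236 sites (9.21%), against 16.1% on chromosomes 1 to 19. This is a signal in peaks that no comparison above used. The difference between the X chromosome and the others was not tested.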

How the results depend on the processing

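The number of constitutive sites was 18042, and 11705 with peaks of −log10 q of at least 10 and 8596 with the 20000 best peaks of each library. The gene-end difference of 29.3 points was 24.8 with −log10 q of at least 5, 4.55 with the 20000 best peaks, 7.50 against sites of 9 to 11 libraries, and, added after seeing the data, 21.1 for sites of at most 1500 bp and 26.5 by midpoint. Leaving out each library gave 28.4 to 29.96 points.

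The summit distance of STAG2 minus STAG1 was 0.707 bp by means (exact permutation p = 0.278) and -0.75 to 0.25 bp with each library left out. Quiescent minus proliferating was 0.0625 bp with all 4 CTCF libraries (exact permutation p = 1), 0.626 bp by means (p = 0.333, exact) and -4.375 to 1.625 bp with each library left out. With the replicate block, the 2 differences were -0.25 and -0.25 bp (exact sign flips, p = 1 for both), so the block changed neither call. The motif offset difference was 17.75 bp with the block. Its sign flips give no usable p, because each CTCF library was paired with both a STAG2 and a STAG1 library and the flips were taken as independent. The number pairs quiescent with proliferating libraries by name only. The motif offset difference kept its direction under every alternative run, at 15.5 to 19.1 bp, and its side of 0.05 in every exact permutation test. With each library left out it was 17 to 18.5 bp (exact permutation p = 0.00667 to 0.0133). By mean offset it was 16.8 bp (exact permutation p = 0.0133), with the ranges of STAG and CTCF libraries overlapping.

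The replicate share of 88.0% was 87.3% in the other direction and 87.4% with −log10 q of at least 5. With 10 points, quiescent sites ranking higher and lower were 2544 and 2206 for STAG2, 1399 and 1353 for STAG1, and 701 and 2457 for CTCF. With 30 points they were 319 and 276, 98 and 81, and 47 and 270. The motif share of constitutive promoters was 17.4% with any bases between AG and the last GGC (8.73% of all promoters) and 3.8% with GG alone there (1.30% of all). Unknown depth limits every absence of a peak, and the motif could be searched only in promoters.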
